A study of Caenorhabditis elegans with 18 samples.

Results

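The intervals described here are introns of genes that are absent from the deposited table of protein-coding genes. They were chosen by their host: each row of the deposited intron table that names a single gene was kept if that gene has no row in the protein-coding table. There were 5594 such intervals in 1584 hosts, out of 106818 intervals in all. The introns of single hosts that do have a row in the protein-coding table, called coding-table introns below, number 95305.

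RNA came from whole Caenorhabditis elegans, synchronized hermaphrodites that were young adults still without embryos, grown on OP50 bacteria at 20 °C. Every worm in the study carried mog-7::degron::gfp together with sun-1p::TIR1::mRuby. MOG-7 is a pre-mRNA splicing factor. TIR1 is a plant F-box protein, made here from the germline promoter of sun-1, that binds the degron when auxin is present and sends the tagged protein for degradation, so the design addresses what happens to introns when germline MOG-7 is removed. The groups were worms exposed to auxin for 2 h, worms exposed to auxin for 1 h, and control worms exposed to ethanol for 2 h, with 6 poly-A selected RNA libraries each. The labels name 6 batches, I, II, V, VII, VIII and X, and every batch gave 1 library to each group. The 1 h auxin group had no ethanol control of its own length. No worms lacking the degron or TIR1 were analysed here, and therefore what auxin does and what losing MOG-7 does cannot be told apart. Nothing in the labels says whether batches were separate cultures, so the p-values measure the spread between these libraries.

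A pseudogene is a copy of a gene that has gathered changes thought to stop it from making a working protein. Many pseudogenes are still transcribed, and their transcripts still carry introns, which the spliceosome removes from the pre-mRNA. Spliced or unspliced, such transcripts often hold an early stop codon, and in C. elegans the SMG proteins of nonsense-mediated decay degrade RNAs of that kind. Long noncoding RNA genes are also transcribed and spliced without coding for a protein. The exons of these hosts are not counted in the protein-coding table, so a change in the amount of a host's RNA and a change in how often its intron is kept cannot be told apart.

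Set against Ensembl release 115 of the WBcel235 annotation, the hosts were mostly pseudogenes. This class held 5210 intervals of 1319 hosts. Long intergenic noncoding RNA genes held 139 intervals of 100 hosts, other noncoding RNA genes 127 intervals of 76 hosts, antisense RNA genes 68 intervals of 57 hosts, and tRNA genes 29 intervals of 29 hosts. Against the name of the set, 2 hosts are annotated there as protein-coding, plg-1 with 4 intervals and Y48G1BM.6 with 11 intervals, and 1 host with 6 intervals had no match. An annotated intron on the same strand, of the host or of another gene, has exactly the coordinates of 5571 intervals. The intervals were short, with a median length of 52 bases against 60 bases for coding-table introns, and 2439 of them lie on chromosome V. An exon of another gene overlaps 235 of them, 38 on the same strand and 197 on the opposite strand alone. No strand setting is stated for the intron table, so reads of these overlapping genes and of antisense hosts cannot be told apart from reads of the intron. Pseudogenes resemble the genes they were copied from, and how reads that match several places were counted is not given in the sources used here, so the split of reads between such copies is uncertain and was not tested.

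Depth set what could be seen. Counted gene reads ranged between 18153020 and 30747645 per library, counted reads over all intervals between 186471 and 885408, and reads over the intervals described here between 13084 and 29638. Levels below are CPM, counts per 1000000 gene reads of the same library. A total of 3 reads corresponds to 0.0976 to 0.165 CPM, depending on the library. Of the 5594 intervals, 2629 had no read in any library and 2965 had at least 1, and the other results by interval rest on the 276 intervals of 131 hosts that passed the low count filter. That is 4.93% of the set, against 14.6% of coding-table introns. The filter favours intervals with reads in any group: 104 of the 276 had at most 3 reads in each ethanol library and so could pass only through the auxin libraries. The RNA of mog-7 itself lay between 38.1 and 45.9 CPM at 2 h, 35.7 and 42.7 at 1 h and 38.3 and 42.8 with ethanol, which says nothing of the protein that the degron removes. Oocyte and sperm genes were present, and the 5 embryo genes examined had at most 7 reads in any library.

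Summed over all 5594 intervals, introns of these hosts held more reads after auxin. The sum averaged 1002 ± 53.2 CPM at 2 h, 998.5 ± 50.01 at 1 h and 722.8 ± 38.7 with ethanol (SD, n = 6 each). The lowest auxin library, at 943.6 CPM, lay above the highest ethanol library, at 774.4 CPM. A single interval of plg-1 supplied much of this total. Its share of the reads over these intervals was 19.04% to 22.5% at 2 h, 31.2% to 36.2% at 1 h and 51.3% to 57.1% with ethanol. Without it the sum was 793.2 ± 44.9 CPM at 2 h, 662.1 ± 46.1 at 1 h and 325.5 ± 23.6 with ethanol, a ratio of 2.44 for 2 h auxin over ethanol and of 2.03 for 1 h auxin over ethanol. No 2 of these 3 groups overlapped. The sums of coding-table introns were higher by a larger factor, 3.40 at 2 h and 2.77 at 1 h. Of the sum without plg-1, the pseudogene F07H5.5 alone held 120.6 ± 9.16 CPM at 2 h, 120.0 ± 10.2 at 1 h and 110.0 ± 15.3 with ethanol. Its log2 fold change was 0.13 at either time. A host so near to level lowers the ratio for the set: the other intervals without plg-1 have ratios above 2.44 at 2 h and above 2.03 at 1 h. The gap to coding-table introns in these sums therefore rests in part on this host. As a share of all interval reads, the introns of hosts outside the table made up 2.82% to 3.07% at 2 h, 3.42% to 3.69% at 1 h and 6.61% to 7.50% with ethanol, without overlap between groups. With the plg-1 interval left out, that share was 2.29% to 2.44% at 2 h, 2.31% to 2.45% at 1 h and 2.96% to 3.54% with ethanol, and the 2 h and 1 h libraries overlapped. These sums do not depend on the low count filter, and the 5318 intervals that failed it summed to 139 ± 11.9 CPM at 2 h, 109 ± 5.93 at 1 h and 64.6 ± 5.75 with ethanol. In whole worms, fewer cells that make an RNA and less of it per cell cannot be told apart.

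**Figure D1:**
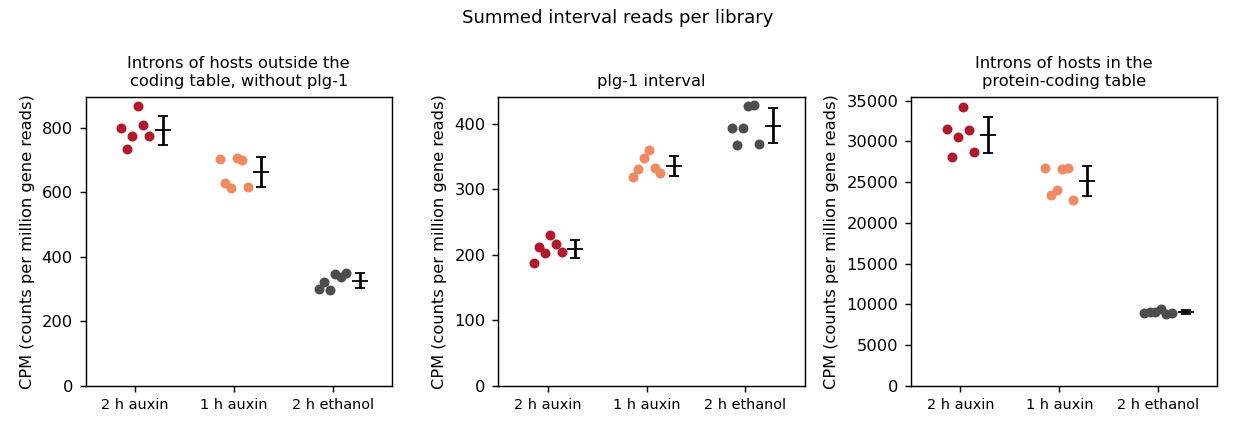
Summed interval CPM in each library (points) with the mean and SD of 6 libraries beside them, for the introns of hosts outside the protein-coding table without the plg-1 interval, for the plg-1 interval alone and for coding-table introns. The first and the last are higher with auxin (793.2, 662.1 and 325.5 CPM at 2 h, 1 h and with ethanol in the first), and the plg-1 interval is lowest at 2 h (209, 336 and 397 CPM).

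Interval by interval, 195 of the 276 tested were called higher and 22 lower at 2 h than with ethanol by edgeR's quasi-likelihood test at an adjusted p under 0.05. The background for the same test is high: over all 15224 intervals tested, 84.8% were called higher and 1.48% lower. For hosts outside the table the shares were 70.7% higher and 7.97% lower, and the difference in these shares was not tested. The 276 include the 104 intervals that could pass the filter only through the auxin libraries. Those could hardly be called lower, and no share without them is given. The same filter was applied to all intervals. Their median log2 fold change was 3.44, against 3.31 over all intervals; with ethanol levels below 3 reads per library set to 3 reads, the medians were 2.34 and 2.45. The 6 libraries of one group lay apart from the 6 of the other for 183 of the 195 rises (93.8%) and for 14 of the 22 falls (63.6%), against 91.5% of the rises and 32.7% of the falls over all intervals. Within batches, 189 of the rises and 20 of the falls had the same direction in 6 of 6 batches (96.9% and 90.9%), against 96.1% and 70.4% over all intervals. The differences between these shares were not tested.

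At 1 h, 188 of the 276 were called higher than with ethanol and 16 lower, against 83.1% and 0.979% of all intervals. A rise was called at both times for 187 intervals and a fall at both times for 16. No interval was called in opposite directions at the 2 times, and 58 were called at neither. Between 2 h and 1 h of auxin, 78 were called higher and 9 lower, against 28.9% and 1.2% of all intervals. Each of these 78 was also called higher at 2 h than with ethanol, and each of the 9 was also called lower at 2 h than with ethanol. Such agreement is partly built in, because these comparisons share the 2 h libraries. Likewise, the comparisons of 2 h and of 1 h with ethanol share the ethanol libraries.

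The scale decides how such counts read, because most introns rose. Scaled to the intervals' own reads by TMM in place of gene reads, the median log2 fold change of all intervals at 2 h was 0.95 in place of 3.31, and the split became 148 higher and 106 lower at 2 h, 144 and 104 at 1 h, and 35 and 33 between 2 h and 1 h. No share of all intervals called on that scale is given, so these counts have no background and are not particular to these hosts. A value above 0 on that scale can still lie below the median of all intervals. Directions below are on the scale of gene reads.

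**Figure D2:**
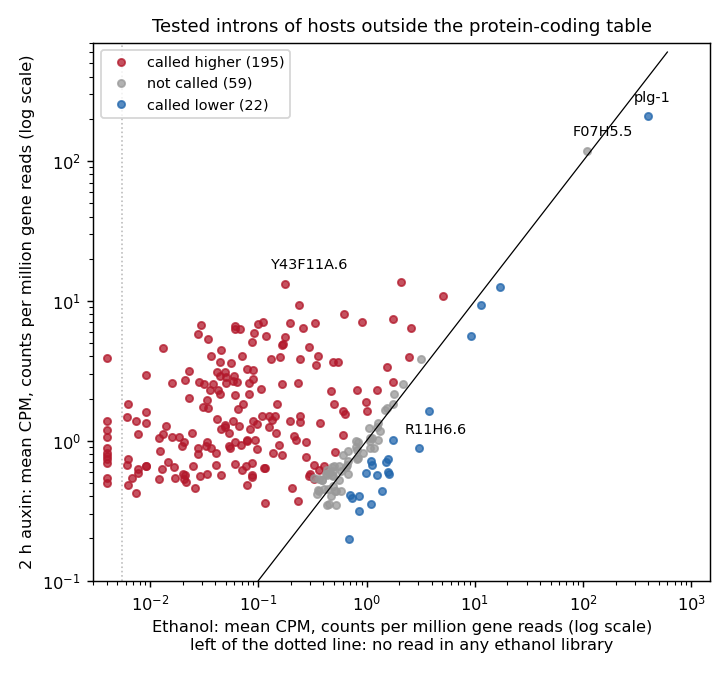
Mean CPM of the 276 tested intervals after 2 h of auxin (vertical, log scale) against ethanol (horizontal, log scale), coloured by the edgeR call, with a line where both are equal. The 11 points left of the dotted line had no ethanol read in any library and are drawn at an arbitrary position; rises spread far from the line at low ethanol levels, while the 22 falls and most uncalled intervals lie near it.

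The hosts with the most tested introns were pseudogenes. The pseudogene prg-2 (WBGene00004179, chromosome IV, 6526962 to 6529802, minus strand) is a close copy of prg-1, whose protein is the PIWI Argonaute that binds piRNAs in the C. elegans germline. All 7 of its introns, each 42 to 47 bases long, were tested and called higher at both times. Summed over the host, they reached 46.4 ± 4.64 CPM at 2 h, 36.8 ± 4.36 at 1 h and 2.25 ± 0.519 with ethanol (SD, n = 6 each), a log2 fold change at 2 h of 4.35 ± 0.127 (SE, adjusted p = 4.27e-29). The groups treated with auxin lay above every ethanol library.

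The introns of prg-2 had group means between 4.80 and 7.99 CPM at 2 h, and between 0.0298 and 0.910 CPM with ethanol. Interval 1 (6529399 to 6529442) had a lowest, median and highest level of 5.44, 6.74 and 7.71 CPM at 2 h, of 5.04, 5.37 and 6.09 at 1 h, and of 0, 0.0386 and 0.0551 with ethanol. Interval 2 (6528751 to 6528797) had 5.54, 7.22 and 8.24 CPM at 2 h, 5.46, 6.08 and 7.54 at 1 h, and 0.603, 0.927 and 1.16 with ethanol. Both had non-overlapping auxin and ethanol libraries. Per kilobase, both held close to 151 CPM at 2 h, against 0.677 CPM for interval 1 and 19.4 for interval 2 with ethanol. Interval 1 had 902 reads in all at 2 h and 4 with ethanol, a ratio per gene read of 231 with a 95% counting interval of 90.0 to 851, while the ratio for interval 2 was 7.58 (6.31 to 9.18). Between 2 h and 1 h, 4 of the 7 introns were called higher.

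**Figure D3:**
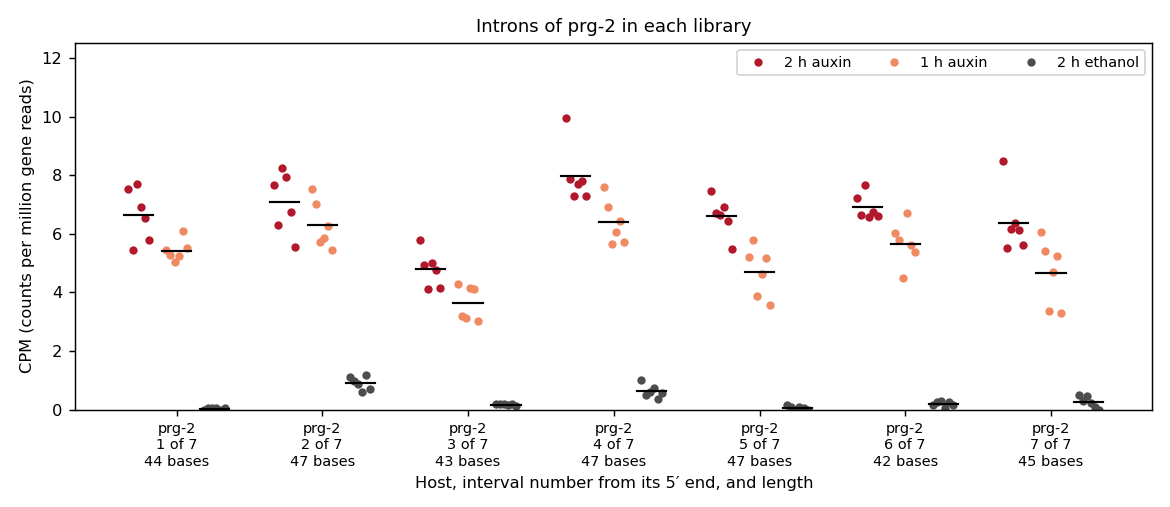
CPM of the 7 introns of the pseudogene prg-2 in each library (points) with group means (lines), by position counted from the host's 5′ end. The auxin libraries of every intron lie above all its ethanol libraries, and the means at 2 h run between 4.80 and 7.99 CPM.

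The other hosts with the most tested introns behaved alike in direction. That likeness was partly set by the choice, since introns with few ethanol reads pass the low count filter through the auxin libraries. Over all introns, C06A1.4 had 99 reads with ethanol and 3864 at 2 h, and R12C12.8 had 34 and 1451. Introns of the same host are also not separate evidence. C06A1.4 (WBGene00014667, chromosome II) had 10 of 10 introns called higher at both times, and their log2 differences between 2 h and 1 h ran from -0.14 to 0.20. Its sum was 28.1 ± 2.11 CPM at 2 h, 27.4 ± 2.85 at 1 h and 0.680 ± 0.286 with ethanol, a log2 fold change of 5.32 ± 0.152 at 2 h (SE, adjusted p = 2.27e-29). R12C12.8 (WBGene00020028, chromosome II) had 8 of 8 tested introns called higher, out of 9. Its sum was 10.6 ± 0.630 CPM at 2 h, 6.93 ± 1.57 at 1 h and 0.242 ± 0.115 with ethanol, and it was also higher at 2 h than at 1 h, by 0.62 ± 0.122 on the log2 scale (adjusted p = 1.31e-04). A second Argonaute pseudogene, wago-2 (WBGene00018862, chromosome I), had 7 of 7 tested introns called higher. It summed to 7.05 ± 0.671 CPM at 2 h, 8.27 ± 0.569 at 1 h and 0.917 ± 0.391 with ethanol. The kinesin-like pseudogene klp-10 (WBGene00002221, chromosome IV) had 6 of 6 called higher and summed to 24.0 ± 2.88 CPM at 2 h, 24.7 ± 2.91 at 1 h and 0.738 ± 0.236 with ethanol. Neither wago-2 nor klp-10 differed between 2 h and 1 h past the threshold (log2 differences of -0.23 ± 0.120, adjusted p = 0.15, and -0.04 ± 0.106, adjusted p = 0.811).

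The largest rises at 2 h, ranked by the fold over an ethanol mean set to no less than 3 reads per library, were short introns of pseudogenes. Of the 10 ranked first, 3 belong to Y43F11A.6, 2 to prg-2 and 2 to Y37B11A.8, and all 10 have 44 to 50 bases. Interval 4 of Y43F11A.6 (WBGene00014576, chromosome II, 12131879 to 12131928) led them. Its lowest, median and highest levels were 11.2, 13.2 and 15.0 CPM at 2 h, 8.75, 10.97 and 13.7 at 1 h, and 0.134, 0.185 and 0.220 with ethanol. The auxin and ethanol libraries did not overlap, and the rise at 2 h came to 6.18 ± 0.190 on the log2 scale (SE, adjusted p = 2.01e-35). Interval 2 of F08B4.3 (WBGene00017235, chromosome IV, 8666677 to 8666725) had 6.19, 6.61 and 8.35 CPM at 2 h, 2.15, 3.24 and 4.29 at 1 h, and 0.0364, 0.101 and 0.150 with ethanol. No 2 of its 3 groups overlapped. Interval 1 of Y80D4G.1 had 530 reads at 2 h, 290 at 1 h and none in any ethanol library, which makes it at least 30.1-fold higher at 2 h when 3 reads per ethanol library are allowed.

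Other intervals rose by smaller folds. Interval 3 of Y80D4G.1, of 1689 bases, averaged 13.7 ± 1.27 CPM at 2 h, 9.86 ± 0.456 at 1 h and 2.08 ± 0.321 with ethanol, a log2 fold change of 2.72 ± 0.126 at 2 h (SE, adjusted p = 2.18e-27). Interval 4 of Y37B11A.8 (chromosome III, 5782863 to 5782941) averaged 10.9 ± 0.637 CPM at 2 h, 7.81 ± 1.12 at 1 h and 5.05 ± 0.290 with ethanol, a log2 fold change of 1.11 ± 0.116 (adjusted p = 3.8e-13). Interval 3 of F18A11.6 averaged 6.36 ± 0.549 CPM at 2 h, 6.33 ± 0.857 at 1 h and 2.57 ± 0.826 with ethanol. The last 2 were called lower, at -1.30 and -1.12, when scaled to the intervals' own reads.

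The second most covered interval was called in neither auxin comparison. Interval 2 of the pseudogene F07H5.5 (WBGene00014309, chromosome II, 8787949 to 8788031, 83 bases) had a lowest, median and highest level of 107.4, 118.7 and 128.3 CPM at 2 h, of 107.3, 117.3 and 130.3 at 1 h, and of 87.8, 109.9 and 127.7 with ethanol. The 3 groups overlapped. On the log2 scale it differed by 0.12 ± 0.0889 at 2 h (SE, adjusted p = 0.193), and with batch as a block the adjusted p was 0.0417. Per kilobase it held 1425 CPM at 2 h, against 23.6 for the plg-1 interval. Introns 3 and 7 of the same host, at 0.556 and 0.575 CPM at 2 h, were called higher at 2 h, with log2 fold changes of 0.84 ± 0.400 and 0.95 ± 0.320 and adjusted p = 0.0461 and 0.0054.

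The plg-1 interval fell and held more reads than any other in the set. The gene plg-1 (WBGene00004041) encodes a mucin-like protein of the mating plug that males of some wild strains leave on their mates, and in the laboratory strain N2 it is interrupted by the retrotransposon Cer1. The interval runs along chromosome III from 8852593 to 8861460 on the plus strand, 8868 bases, and matches no annotated intron; the annotated gene ends inside it, at 8853006. Which sequence within the interval gave the reads was not tested. Its lowest, median and highest levels were 187.8, 208.8 and 230.0 CPM at 2 h, 319.6, 331.8 and 361.1 at 1 h, and 368.6, 394.2 and 429.8 with ethanol. No 2 of the 3 groups overlapped. It fell by 0.93 on the log2 scale at 2 h (SE 0.0726, adjusted p = 1.17e-17), by 0.24 at 1 h (SE 0.0720, adjusted p = 0.00189), and by 0.69 between 2 h and 1 h (SE 0.0724, adjusted p = 1.48e-09), with the same direction in 6 of 6 batches each time. The other 3 plg-1 intervals held 2 reads in all at 2 h, 1 at 1 h and none with ethanol.

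The intervals called lower had a larger median length than those called higher. The 22 falls at 2 h, in 18 hosts, had a median length of 229.5 bases and a range of 50 to 8868, against medians of 51 bases for the rises and 77 bases for those not called. Only 1 of them had 50 bases or less, and 2 overlapped an exon of another gene. By length, 92 of the 111 tested intervals of 50 bases or less rose and 1 fell, or 82.9% higher, against 92.5% of coding-table introns of that length. Above 1000 bases, 11 of 28 rose and 8 fell, or 39.3% and 28.6%, against 72.1% and 1.28% of coding-table introns. In sums, intervals of 50 bases or less held 334 ± 24.7 CPM at 2 h, 261 ± 28.5 at 1 h and 43.8 ± 1.42 with ethanol, a ratio at 2 h of 7.62, against 5.84 for coding-table introns of that length. In the longer classes the ratio was the smaller one: 1.61 against 3.53 above 50 and up to 100 bases, 1.77 against 2.56 up to 400 bases, 1.53 against 2.51 up to 1000 bases, and 0.621 against 2.12 above 1000 bases, or 1.55 there without the plg-1 interval. The sum above 50 and up to 100 bases, 253.7 CPM at 2 h and 157.4 with ethanol, includes the most covered interval of F07H5.5. All introns of F07H5.5 summed to 120.6 and 110.0 CPM. In that class 72.7% of tested intervals were called higher, against 87.3% of coding-table introns. The median log2 fold changes there were 3.39 and 3.50. Long introns that rose include interval 6 of Y111B2A.25, of 4484 bases, at a log2 fold change of 3.40, and an intron of puf-10, of 1027 bases, at 5.04. The product of puf-10 belongs by sequence to the Pumilio family of RNA-binding proteins.

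**Figure D4:**
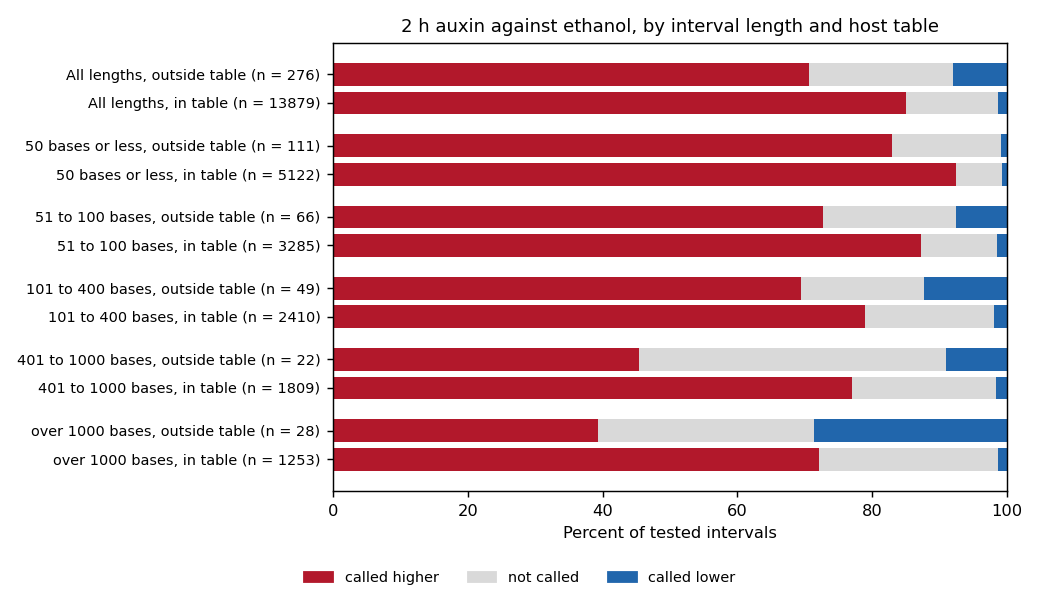
Percent of tested intervals called higher, not called and called lower at 2 h of auxin against ethanol, by interval length, for hosts outside the protein-coding table and for hosts in it, with the number tested beside each bar. The share called higher is smaller in each longer class in both, and among hosts outside the table the share called lower reaches 28.6% above 1000 bases.

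The largest fall was in the last intron of the pseudogene R11H6.6 (WBGene00014822, chromosome V, 14591818 to 14592619, minus strand, 802 bases). Its lowest, median and highest levels were 0.625, 0.917 and 1.04 CPM at 2 h, 1.06, 1.12 and 1.26 at 1 h, and 2.37, 3.08 and 3.76 with ethanol. No 2 groups overlapped, and it fell by 1.79 on the log2 scale at 2 h (SE 0.169, adjusted p = 1.1e-14). Introns 1 and 2 of the host, of 67 and 98 bases, fell by 1.37 and 1.66 at 2 h (adjusted p = 6.67e-06 and 3.12e-09). The 3 introns between them, of 56, 51 and 45 bases, had too few reads to be tested, and their reads lay the other way: 23, 22 and 32 at 2 h, 11, 8 and 7 at 1 h, and 1, 0 and 3 with ethanol.

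R119.1 (WBGene00020087) and Y48G1BM.8 (WBGene00021673), both pseudogenes of chromosome I, were the other hosts with more than 1 tested intron whose tested introns all fell. Their untested introns held few reads and did not all fall. Interval 5 of R119.1 had 22 reads at 2 h, 18 at 1 h and 7 with ethanol, and interval 6 of Y48G1BM.8 had 19, 21 and 2. Interval 6 of R119.1 had 6, 14 and 11. Interval 4 of R119.1, of 50 bases, had 0.268, 0.348 and 0.422 CPM at 2 h, 0.550, 0.718 and 0.902 at 1 h, and 0.817, 1.08 and 1.32 with ethanol. The 2 h libraries lay below all others, while the 1 h and ethanol libraries overlapped; it fell by 1.62 at 2 h (SE 0.232, adjusted p = 5.28e-09) and by 0.58 at 1 h (SE 0.199, adjusted p = 0.00588). Interval 2 of Y48G1BM.8, of 1336 bases, averaged 0.579 ± 0.250 CPM at 2 h, 1.18 ± 0.209 at 1 h and 1.62 ± 0.221 with ethanol, and fell by 1.497 at 2 h (SE 0.217, adjusted p = 6.78e-09). Interval 2 of T02G5.4 (chromosome II) averaged 1.62 ± 0.419 CPM at 2 h, 2.66 ± 0.363 at 1 h and 3.80 ± 0.763 with ethanol, and fell by 1.21 (SE 0.160, adjusted p = 6.64e-10). The other introns of T02G5.4 had too few reads to be tested. Their reads lay the other way: 34, 48, 44, 20 and 21 at 2 h, against 4, 11, 2, 5 and 0 with ethanol. Most falls were of intervals at a few CPM or less, where each library held few reads.

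**Figure D5:**
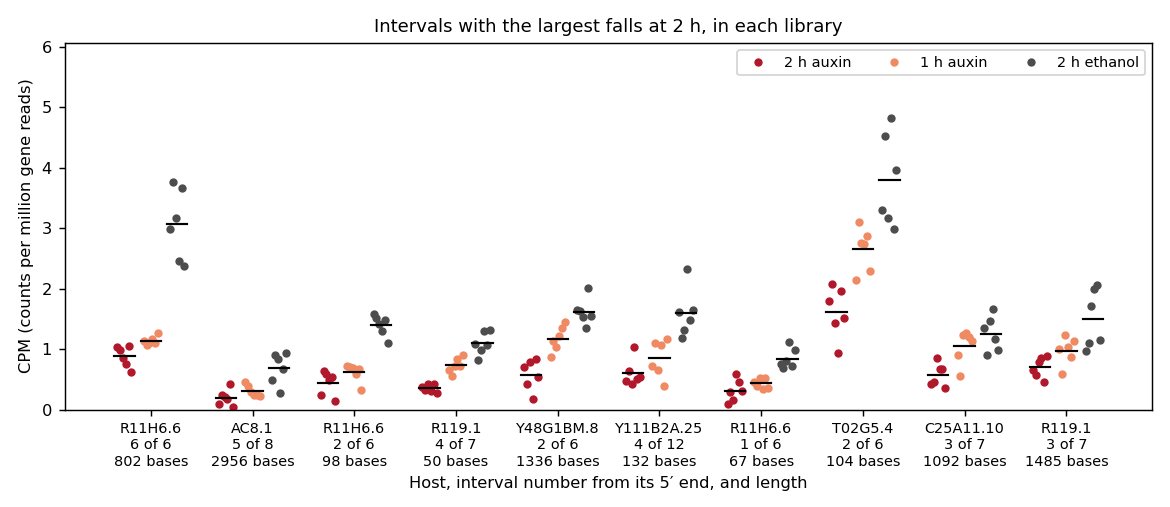
CPM in each library (points) with group means (lines) for the 10 intervals with the largest falls at 2 h of auxin, by host, position from its 5′ end and length. All but the AC8.1 interval have their 2 h libraries below all ethanol libraries, and the 1 h means lie between the means of the other groups.

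Better covered intervals fell as well. Interval 2 of F56D5.4 (chromosome IV, 9403579 to 9403797, 219 bases) averaged 12.5 ± 0.880 CPM at 2 h, 11.8 ± 0.433 at 1 h and 17.2 ± 1.42 with ethanol, and fell by 0.46 at 2 h (SE 0.103, adjusted p = 4.74e-05). The other 4 introns of F56D5.4, of 49 to 79 bases, were called higher, with log2 fold changes of 0.87 to 4.58. Interval 3 of Y102A5C.5 (chromosome V, 53 bases) averaged 9.32 ± 0.734 CPM at 2 h, 12.2 ± 1.08 at 1 h and 11.4 ± 1.27 with ethanol, and fell by 0.29 at 2 h (SE 0.111, adjusted p = 0.0121). That fall was not called without batch VIII, at -0.23 (adjusted p = 0.0884), and the other 2 introns of the host were called higher, at 4.55 and 3.92. Interval 7 of Y54G2A.21 (chromosome IV, 7223 bases) averaged 5.58 ± 0.655 CPM at 2 h, 8.72 ± 0.623 at 1 h and 9.14 ± 0.879 with ethanol, and fell by 0.71 at 2 h (SE 0.116, adjusted p = 1.06e-07), with no call at 1 h (adjusted p = 0.593). Over all hosts with more than 1 tested intron, 63 in number, 43 had every tested intron called higher, 3 every one lower, 6 some higher and none lower, 3 both higher and lower, and 8 none called. Every tested intron was called higher in 68.3% of these hosts, against 77.4% of 3231 hosts in the protein-coding table with more than 1 tested intron, and every one lower in 4.76%, against 0.0929%; these differences were not tested. The 3 mixed hosts were F56D5.4, Y102A5C.5 and Y111B2A.25. A fall of a tested intron was not always a fall of its host. Summed over all introns, Y57A10A.6, miro-3 and Y111B2A.25 were called higher at 2 h, by 1.09, 0.75 and 1.66 on the log2 scale. F56D5.4, Y102A5C.5, C25A11.10, Y73B3A.9 and Y73B3B.5 were not called as hosts, and the remaining hosts with a fall were called lower.

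The noncoding RNA hosts had 19 tested introns in 15 hosts, of which 13 rose and none fell at 2 h by edgeR, a share of 68.4% called higher, against 84.8% higher and 1.48% lower over all intervals. The count lower at 2 h was also 0 at an unadjusted p under 0.05 and 0 by DESeq2. The roles of most of these RNAs are not known. The long intergenic RNA linc-9 (WBGene00219678, chromosome I) had all 3 of its introns called higher. Interval 2 of linc-9, of 216 bases, had 1.25, 1.82 and 2.28 CPM at 2 h, 0.902, 1.42 and 1.58 at 1 h, and 0.328, 0.503 and 0.674 with ethanol, without overlap between the auxin and ethanol libraries, and rose by 1.86 ± 0.208 on the log2 scale at 2 h (SE, adjusted p = 3.89e-12). Introns of linc-4, linc-131 and linc-146 rose by 3.06, 4.65 and 2.43. The antisense RNA anr-8 (chromosome IV) had 3 of 3 introns called higher, with log2 fold changes of 1.40 to 3.41.

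Among the 6 introns of noncoding RNAs that were not called, lep-5 (WBGene00010424, chromosome X) is a long noncoding RNA that acts in developmental timing in C. elegans. Its intron of 48 bases had 0.613, 0.959 and 1.65 CPM at 2 h, 0.631, 0.865 and 1.17 at 1 h, and 0.510, 1.23 and 1.34 with ethanol. The groups overlapped, and the log2 difference at 2 h was -0.08 ± 0.215 (SE, adjusted p = 0.735). The antisense RNA anr-48 averaged 2.17 ± 0.533 CPM at 2 h, 2.04 ± 0.536 at 1 h and 1.81 ± 0.358 with ethanol, at a log2 difference of 0.26 ± 0.177 (adjusted p = 0.159), and exons of fbxb-38 and C33C12.12 lie on the strand opposite its intron. Introns of ZK822.8 and anr-35, which rose by 0.70 and 1.43, also lie opposite exons of another gene, ZK822.1 and F37H8.2. All 29 tRNA introns together held 0.325 ± 0.0722 CPM at 2 h, 0.390 ± 0.111 at 1 h and 0.342 ± 0.0884 with ethanol; poly-A selection does not capture tRNA, and the groups overlapped.

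On chromosome X, which is transcribed little in the C. elegans germline, 12 intervals were tested, of which 1 rose and 5 fell at 2 h. Coding-table introns on X were called higher in 31.8% and lower in 3.11% of 579 tested. The X-linked intervals that fell belong to the pseudogenes AC8.1, C25A11.10, Y73B3A.3, Y73B3A.9 and Y73B3B.5. Summed per host, AC8.1 and Y73B3A.3 were called lower at 2 h, and C25A11.10, Y73B3A.9 and Y73B3B.5 were not called. By the same host test T08A9.6, T08D2.2, F46C3.4, Y13C8A.4, Y73B3A.21 and hpo-41, also on X, were called higher. All X-linked intervals of the set held 24.87 ± 1.83 CPM at 2 h, 23.25 ± 2.00 at 1 h and 19.54 ± 0.863 with ethanol. The 2 h libraries lay above all ethanol libraries, and the 1 h libraries overlapped them. Interval 5 of AC8.1, of 2956 bases, had 0.0447, 0.195 and 0.417 CPM at 2 h, 0.226, 0.269 and 0.449 at 1 h, and 0.278, 0.754 and 0.937 with ethanol; the groups overlapped, and it fell by 1.72 at 2 h (SE 0.331, adjusted p = 3.9e-06). On chromosome V, with the most intervals, 34 of 59 were called higher (57.6%) and 4 lower (6.78%), against 84.7% and 1.12% of coding-table introns there, and on chromosome III 31 of 37 were called higher (83.8%), against 87.7%.

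The 5 largest differences between 2 h and 1 h were in intervals with at most 12 ethanol reads in all. Interval 6 of F02H6.4 (chromosome IV, 354 bases) had 0.424, 0.887 and 1.18 CPM at 2 h, 0.163, 0.211 and 0.553 at 1 h, and at most 0.0375 with ethanol. The 2 h and 1 h libraries overlapped, and the log2 difference was 1.52 ± 0.294 (SE, adjusted p = 0.000103). Interval 1 of F08B4.3 had 1.84, 2.64 and 3.44 CPM at 2 h and 0.813, 1.04 and 1.28 at 1 h, without overlap, at 1.31 ± 0.176 (adjusted p = 1.89e-07). Introns 4 and 6 of F43D2.2 and 1 of fbxa-200, a pseudogene of the F-box family, differed by 1.30, 1.21 and 1.22. Against a fold change of 1.5, 5 intervals were called higher at 2 h than at 1 h, and no share over all intervals is given for that test.

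Counting per host, so that a host with many introns weighs no more than one with few, 181 hosts could be tested. At 2 h 106 rose and 10 fell, against 74.0% and 0.782% of all hosts, and at 1 h 92 rose and 5 fell, against 69.8% and 0.712%. Between 2 h and 1 h 46 were higher and 7 lower, against 28.7% and 1.45%. The pseudogene drh-2, of the Dicer-related helicase family, shows the lower end of the rises: its 18 introns summed to 0.997 ± 0.206 CPM at 2 h, 0.757 ± 0.179 at 1 h and 0.709 ± 0.121 with ethanol, a log2 fold change of 0.47 ± 0.206 (SE, adjusted p = 0.0378), with overlap between groups.

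The genes that degrade aberrant RNAs were examined beside the hosts, in the protein-coding table. Of 29 listed genes of nonsense-mediated decay, the exosome and the exonucleases, 28 were in the table and tested. At 2 h none was called higher and 18 were called lower, against 9.72% and 23.0% of all genes tested, and at 1 h none was higher and 15 lower, against 2.76% and 7.9%. At an unadjusted p under 0.05 edgeR also called 0 higher at either time, as it did with batch as a block, and with TMM factors 1 passed that unadjusted threshold at 2 h. Between 2 h and 1 h 1 was higher and 2 lower, against 2.2% and 5.95%, and with batch as a block 1 was higher and 12 lower. The falls were small, with a median log2 fold change of -0.22 at 2 h. The kinase gene smg-1, which starts nonsense-mediated decay, averaged 86.9 ± 4.83 CPM at 2 h, 108 ± 8.40 at 1 h and 129 ± 8.13 with ethanol, and fell by 0.57 at 2 h (SE 0.0549, adjusted p = 1.78e-07). The exosome helicase gene mtr-4 averaged 133 ± 5.28 CPM at 2 h, 129 ± 2.97 at 1 h and 128 ± 5.77 with ethanol and was not called (adjusted p = 0.278). Germline marker genes differed at 2 h too: 7 of 10 were called lower and none higher (0 at an unadjusted p under 0.05, with or without the block). At 1 h, 2 germline markers were called lower and 1, glh-1, higher, and with the block 4 were lower and 2 higher. The summed germline level per kilobase was 2314 to 2775 CPM at 2 h, 2932 to 3296 at 1 h and 3052 to 3563 with ethanol. The 1 h and ethanol libraries overlapped in this sum. At 2 h, 2 of 10 somatic markers were higher and 1 lower, and 1 of 5 sperm genes was higher. With batch as a block 6 of 10 somatic markers and 3 of 5 sperm genes were higher at 2 h, and 24 surveillance genes were lower at 2 h and 21 at 1 h. The share of all genes called with the block is not given here, so the gene counts with the block have no background. The part of the shifts of these genes in the intron levels was not tested.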

How the data were processed

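Total RNA was extracted with TRIzol LS and an RNeasy kit per the labels, and stranded libraries were made after poly-A selection. The authors deposited 2 tables of raw read counts for 18 libraries, 1 per protein-coding gene and 1 per intron interval. The tools named, without versions or roles, per the submitters' processing notes are Trimmomatic, cutadapt, STAR, SAMtools, Picard, featureCounts, limma and edgeR. The genome build and the strand setting of the intron table are not given in the sources used here; 104851 intervals coincide with introns of WBcel235 in Ensembl release 115. No value column lacked a sample (0 such columns).

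Hosts were named from a symbol table (235), RefSeq locus tags (1316) or the sequence name alone (32), and 1 was not matched. Library size was the sum of gene counts. Intervals passing filterByExpr (minimum count 10) were tested over all 18 libraries with edgeR 4.0.16 in R 4.3.3 (glmQLFit and glmQLFTest, group as the only term, no further scaling), with Benjamini-Hochberg adjustment over all 15224 intervals and a threshold of 0.05; hosts, as sums of their intervals, and genes were fitted likewise. Sums over intervals have no test. Counting intervals are exact at 95% and, like the floor of 3 reads, cover counting error only. The model was tested on simulated counts of 15224 intervals, of which 200 were raised at 2 h. It called 84 of 100 raised 2-fold and 100 of 100 raised 4-fold, with 9 false calls. In the data most intervals rose, so the simulation does not cover a shift of that extent. Alternatives used TMM factors of genes or of intervals, no filter, DESeq2 1.42.0, batch as a block, a fold threshold of 1.5 and each batch left out; those without plg-1 and with pseudogene hosts alone, and those on the surveillance genes, were chosen after seeing the data. Samples of the same batch name were taken as pairs because the labels call these batches; the correlation of deviations within a batch was 0.134 to 0.651 over genes and 0.00971 to 0.238 over intervals.

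Named intervals were the 10 with the most reads, the 10 largest rises at 2 h in 6 of 6 batches, the 10 largest falls at each time, the 5 largest differences between 2 h and 1 h and the 3 hosts with the most tested intervals (a tie of prg-2 with wago-2 at 7 went to the lower gene ID); intervals named outside this rule (wago-2, klp-10, drh-2, puf-10, the noncoding RNAs, those on X, and introns of hosts already named) were chosen after their values were seen. The intervals and gene lists were chosen with earlier results of these data known. No genome sequence was used here, so no sequences are printed.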

Additional observations from a re-analysis of the deposited data

Results flagged for a closer look

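Among 183 groups of 6 libraries examined for the named intervals, 9 held 1 library far from the other 5, close to the share of about 1 in 20 that chance gives. In the auxin groups, batch I at 2 h had 8.49 CPM in interval 7 of prg-2 (others 5.51 to 6.38) and 9.95 in interval 4 of prg-2 (others 7.28 to 7.88). Batch VII at 2 h had 8.35 in interval 2 of F08B4.3 (others 6.19 to 6.83) and 1.03 in interval 4 of Y111B2A.25 (others 0.422 to 0.636). Batch X at 1 h had 0.316 in interval 2 of R11H6.6 (others 0.587 to 0.726). With ethanol, batch II had 0.204 in interval 2 of C14B1.7 (others at most 0.0729), and batch X had 0.165 in interval 1 of Y43F11A.6 and 0.0551 in interval 4 of R12C12.8, and batch VII had 0.0464 in interval 1 of R12C12.8, with no read in the other 5 libraries of these last 3. Where 5 libraries hold no read, any read in the remaining 1 is flagged.

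The auxin effect at 2 h differed from that at 1 h, by the edgeR contrast of the 2 times, most in interval 6 of F02H6.4 (1.52 on the log2 scale), interval 1 of F08B4.3 (1.31), introns 4 and 6 of F43D2.2 (1.30 and 1.21) and interval 2 of fbxa-200 (1.22). All 5 were higher at 2 h in 6 of 6 batches.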

How the results depend on the processing

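Most results kept their direction and their side of the threshold: for single intervals 693 alternative values did, 9 lost a call, 2 gained one and 2 turned round. Scaled by TMM on interval counts, interval 3 of F18A11.6 and interval 4 of Y37B11A.8 turned lower at 2 h, at -1.12 and -1.30. With no low count filter, 611 of 2965 intervals were called at 2 h (578 higher, 33 lower) and 473 at 1 h (449 higher, 24 lower), since more intervals were tested. Against a fold of 1.5, 5 were called between 2 h and 1 h. With the replicate block the calls were 198 higher and 23 lower at 2 h, 190 and 16 at 1 h, and 92 and 12 between them, and the surveillance genes called between 2 h and 1 h numbered 13 in place of 3. No share over all intervals or all genes is given for the block, so these counts have no background. The same holds for the counts without the low count filter and against a fold of 1.5. Summed CPM at 2 h, at 1 h and with ethanol were 377.6, 300.4 and 143.7 without the 1% of intervals with the most reads, 790.7, 659.5 and 322.8 for annotated introns alone, 793.2, 662.1 and 325.5 without the plg-1 interval, and 757.8, 632.9 and 305.5 for pseudogene hosts alone. Without batch II the fall of interval 3 of miro-3 at 2 h was not called (-0.45, adjusted p = 0.155). Depth limits what is known of the 2629 intervals with no read.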
